A study of Mus musculus with 22 samples.

Results

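10 neuropeptide genes of the hypothalamus with roles in hunger, growth and social behaviour were examined by genotype: Oxt, Avp, Pomc, Agrp, Npy, Cartpt, Hcrt, Pmch, Trh and Ghrh. They were chosen by gene symbol and not by their measured values, though earlier results of these data were known. Each was found once in both deposited tables, giving 10 genes of 55409 in all. The mice were PWS-cr pups, heterozygous for a deletion of the Prader-Willi critical interval (Snord116 and Ipw), PWS-IC pups, heterozygous for a deletion of the imprinting centre, and the wild type (WT) littermates of each. In both models the deletion lies on the paternal chromosome, from which the genes of this interval are expressed, and it is present in every cell. Whole brains were taken on the morning after birth, at postnatal day 0 (P0), from untreated animals, and polyadenylated RNA was sequenced. The libraries with counts came from 6 PWS-cr and 5 WT pups of 4 litters, and from 4 PWS-IC and 5 WT pups of 2 litters, with 1 pup per library. A whole brain holds few cells of the hypothalamic peptide types, so that a lower count can come from fewer such cells or from less RNA per cell, and these cannot be told apart.

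The hypothalamus uses small secreted peptides as its signals. In the arcuate nucleus, neurons that make AgRP and NPY promote feeding and neurons that make POMC and CART restrain it. The lateral hypothalamus holds the orexin (Hcrt) and melanin-concentrating hormone (Pmch) neurons, which act on arousal, feeding and sleep. Oxytocin and vasopressin are made by large neurons of the paraventricular and supraoptic nuclei, released from the posterior pituitary, and act within the brain on social behaviour. Trh and Ghrh encode the releasing hormones that drive the thyroid and growth hormone axes, and Prader-Willi syndrome in humans is known for hyperphagia, short stature and a reduced number of oxytocin neurons.

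Oxt and Avp are neighbours on mouse chromosome 2 and are transcribed towards each other. In the mm10 annotation (GENCODE M21) Oxt lies on the plus strand at chr2:130576173-130577054 and Avp on the minus strand at chr2:130580620-130582554, with 3565 bases and no other annotated gene between them. Each has 3 exons. The 250 bases before the RefSeq start of each gene (GRCm38.p6) are shown because the levels of this pair were spread most widely among PWS-cr pups, relative to their means, Oxt at chr2:130575919-130576168 on the plus strand and Avp at chr2:130582589-130582838 on the minus strand. Capitals mark matches, on either strand, to the letters searched: TATAAA (bound by the TATA-binding protein), CACGTG (an E-box), TGACGTCA (a cAMP response element), AGGTCA (a nuclear receptor half-site), TAATTA (a homeodomain core) and CAGCTG (another E-box). No match overlapped another in either window.
Oxt: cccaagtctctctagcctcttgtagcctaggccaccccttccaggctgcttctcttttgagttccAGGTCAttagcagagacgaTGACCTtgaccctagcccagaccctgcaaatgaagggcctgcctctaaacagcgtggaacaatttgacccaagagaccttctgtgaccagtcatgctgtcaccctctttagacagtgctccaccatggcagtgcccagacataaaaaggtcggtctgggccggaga
Avp: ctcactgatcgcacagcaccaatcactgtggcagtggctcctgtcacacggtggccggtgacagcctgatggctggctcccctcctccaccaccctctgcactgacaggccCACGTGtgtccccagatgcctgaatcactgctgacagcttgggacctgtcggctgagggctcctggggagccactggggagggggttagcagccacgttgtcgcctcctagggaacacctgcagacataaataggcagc
Upstream of Oxt, AGGTCA was found on the gene's own strand from position -185 to -180 and on the opposite strand from -166 to -161, counted back from the start. Upstream of Avp, the only match was CACGTG from -139 to -134. Of 32851 RefSeq promoter windows, 16.3% held AGGTCA and 7.15% held CACGTG. These windows hold 250 bases before and 50 after the start, and so are longer than the stretches shown. Such a match describes the letters only.

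The other genes lie on chromosome 12 (Pomc), 8 (Agrp), 6 (Npy and Trh), 13 (Cartpt), 11 (Hcrt), 10 (Pmch) and 2 (Ghrh). The libraries were unstranded, and where exons of a plus-strand and a minus-strand gene overlap, the source of a read is unknown. Of the 749 exonic bases of Pmch, 435 overlap exons of Parpbp on the other strand, and 114 of the 1013 exonic bases of Agrp overlap exons of Ctcf. Exons of Gm5914, a noncoding gene on the same strand as Agrp, also share 114 bases with Agrp. The share of reads that came from shared bases can differ from the share of bases, and it was not tested for these 2 genes. The remaining 8 members share no exonic base with another annotated gene.

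Libraries held 45798407 to 62103143 counts. The PWS-IC series has 2 libraries that go against their labels. In 1_3_IC, whose label gives a female of the PWS-IC genotype, Snrpn had 18116 counts, Eif2s3y on the Y chromosome 3191 and Xist 64, against 255 to 425 Snrpn counts in the other PWS-IC libraries. In 1_7_IC, labelled as a male of WT genotype, Snrpn had 343, Eif2s3y 9 and Xist 124574 counts. Their labels were kept, and each test of PWS-IC pups is given with all 9 libraries and with the 7 others, while levels in TPM are given over all 9. All 4 PWS-IC pups were labelled female and 4 of their 5 WT littermates male, so sex and genotype are largely confounded there. Snrpn lies outside the PWS-cr deletion and had 12451 to 17121 counts in PWS-cr pups and 13046 to 15507 in their WT littermates. The library labelled 1_3_IC also had relatively more reads of short genes: its genes with under 1 kb of exons stood 0.34 above the median of the other libraries of the series (log2) and those with over 5 kb stood at -0.21, a difference of 0.55 between these classes that ranged from -0.12 to 0.15 in the other 19 libraries. Of the 10 peptide genes, 6 have under 1 kb of exons and 0 have over 5 kb.

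Per transcript length, Npy was the most abundant of the 10 genes in every library. Over the PWS-cr series its median was 229.9 TPM (counts per transcript length at a fixed library total, as deposited), followed by Avp at 19.2, Trh at 10.4, Pmch at 7.82, Cartpt at 5.31, Agrp at 3.75, Pomc at 2.27, Ghrh at 2.23, Oxt at 1.99 and Hcrt at 1.45 TPM. Over the PWS-IC series the medians were 239.6 TPM for Npy, 25.8 for Avp, 11.8 for Trh, 8.09 for Pmch and 7.90 for Cartpt, with Oxt next at 3.62 TPM. Agrp, Ghrh, Pomc and Hcrt followed at 3.42, 2.55, 2.15 and 1.46 TPM. Npy exceeded Avp in 11 of 11 and 9 of 9 libraries, and Cartpt exceeded the gene after it in every library of both series. Pomc and Ghrh could not be ordered, with Pomc above Ghrh in 5 of 11 libraries and Ghrh above Pomc in 5 of 9. Pmch exceeded Cartpt in 8 of 11 and 5 of 9 libraries. Oxt exceeded Agrp in 5 of 9 libraries of the PWS-IC series and Hcrt in only 6 of 11 of the PWS-cr series, where its levels were spread most widely.

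**Figure D1:**
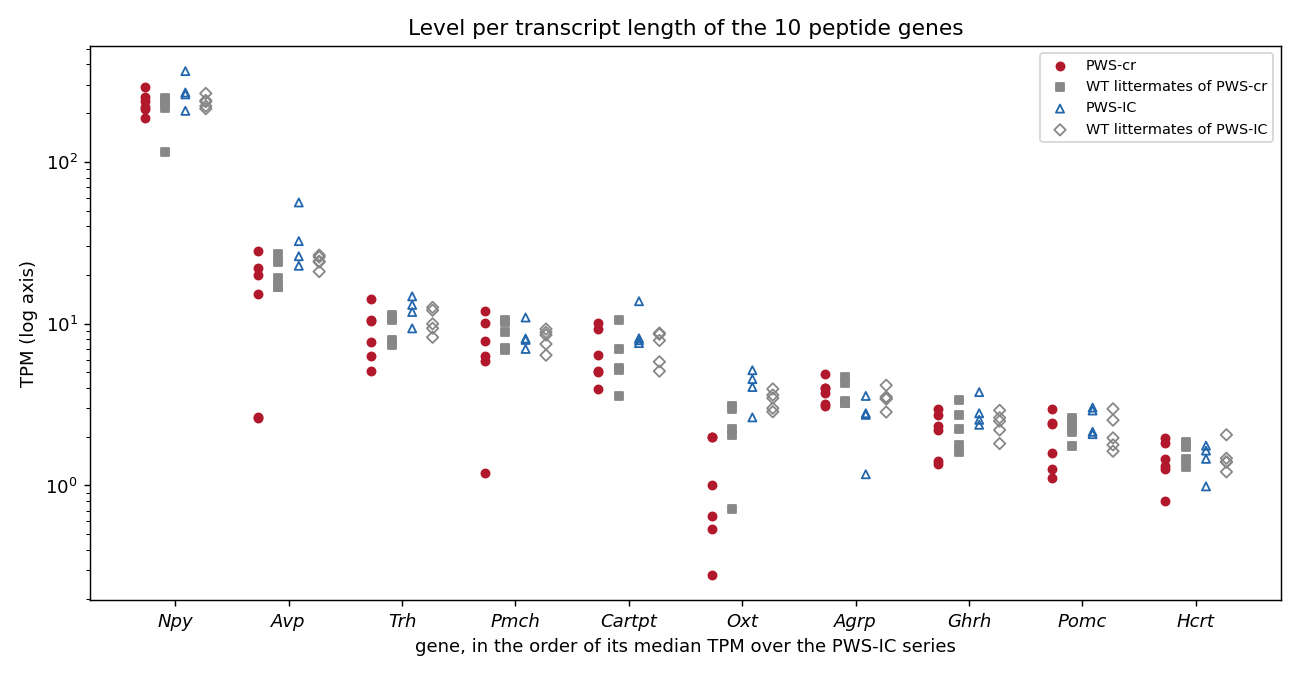
Deposited TPM (log axis) of each peptide gene in every P0 brain, with the mutant groups left of their WT littermates. Npy lies far above the others in all 20 libraries, and the 2 lowest Avp values are those of PWS-cr libraries.

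The same 10 genes were then compared between PWS-cr pups and WT littermates, to ask whether loss of the critical interval changed the peptides of feeding and social behaviour in the newborn brain. No peptide gene was called: 0 of 10 had a Benjamini-Hochberg adjusted p under 0.05 in edgeR's quasi-likelihood test with litter and genotype, where 0.0135% of the 22172 genes tested were called. The 3 lowest fold changes were those of Oxt, Avp and Pmch, and 3_5_Cr had the lowest value of the series in all 3. At an unadjusted p under 0.05 there was 1 of 10 members (Pmch, lower), beside 2.07% of all genes, and for 0 of 10 did the CPM of the 2 groups fail to overlap, beside 0.171% of all genes. 7 of the 10 fold changes were below 0 and the median log2 fold change was -0.18, beside 0.00 over all genes tested.

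Oxt, which encodes oxytocin, had 2 counts in the lowest, a median of 5.5 and 14 counts in the highest PWS-cr library, against 5, 16, 15, 23 and 19 counts in WT littermates. In CPM (counts over the library total after TMM scaling, the trimmed mean of M values), that was 0.144 ± 0.098 in PWS-cr pups and 0.297 ± 0.132 in WT pups (SD, n = 6 and 5). In all, 4 PWS-cr libraries had 7 counts or fewer, and so did 1 WT library, labelled 1_3_Cr, so that the groups overlapped. The counts are small: the exact Poisson 95% interval, which covers counting error only, is 0.24 to 7.22 for the 2 counts and 14.6 to 34.5 for the 23 counts. The log2 fold change was -1.10 (SE 0.53, 95% interval -2.28 to 0.07), with an unadjusted p of 0.0623 and an adjusted p of 0.9999 in edgeR. Within litters the difference in mean log2 CPM, PWS-cr minus WT, was 0.35 in litter 1, -2.93 in litter 3 and -1.58 in litter 4. Litter 2 has a PWS-cr library only.

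Avp, the gene for vasopressin, did not vary smoothly: the PWS-cr libraries labelled 1_5_Cr and 3_5_Cr had 21 and 20 counts, and the other 4 had between 115 and 186. The lowest, median and highest PWS-cr values were 0.373, 2.54 and 4.08 CPM, against 3.42, 2.42, 2.70, 2.50 and 3.86 CPM in WT littermates. Apart from those 2 libraries the groups covered the same range, and the highest value of the series was that of a PWS-cr pup. Means were 2.17 ± 1.52 CPM in PWS-cr pups and 2.98 ± 0.628 in WT pups (SD, n = 6 and 5), with a log2 fold change of -0.82 (SE 0.59, 95% interval -2.13 to 0.48, edgeR adjusted p = 0.9999). Without the libraries 1_5_Cr and 3_5_Cr, an alternative chosen after seeing the data, the log2 fold change of Avp was -0.02 (SE 0.20) and that of Oxt was -0.53 (SE 0.57).

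**Figure D2:**
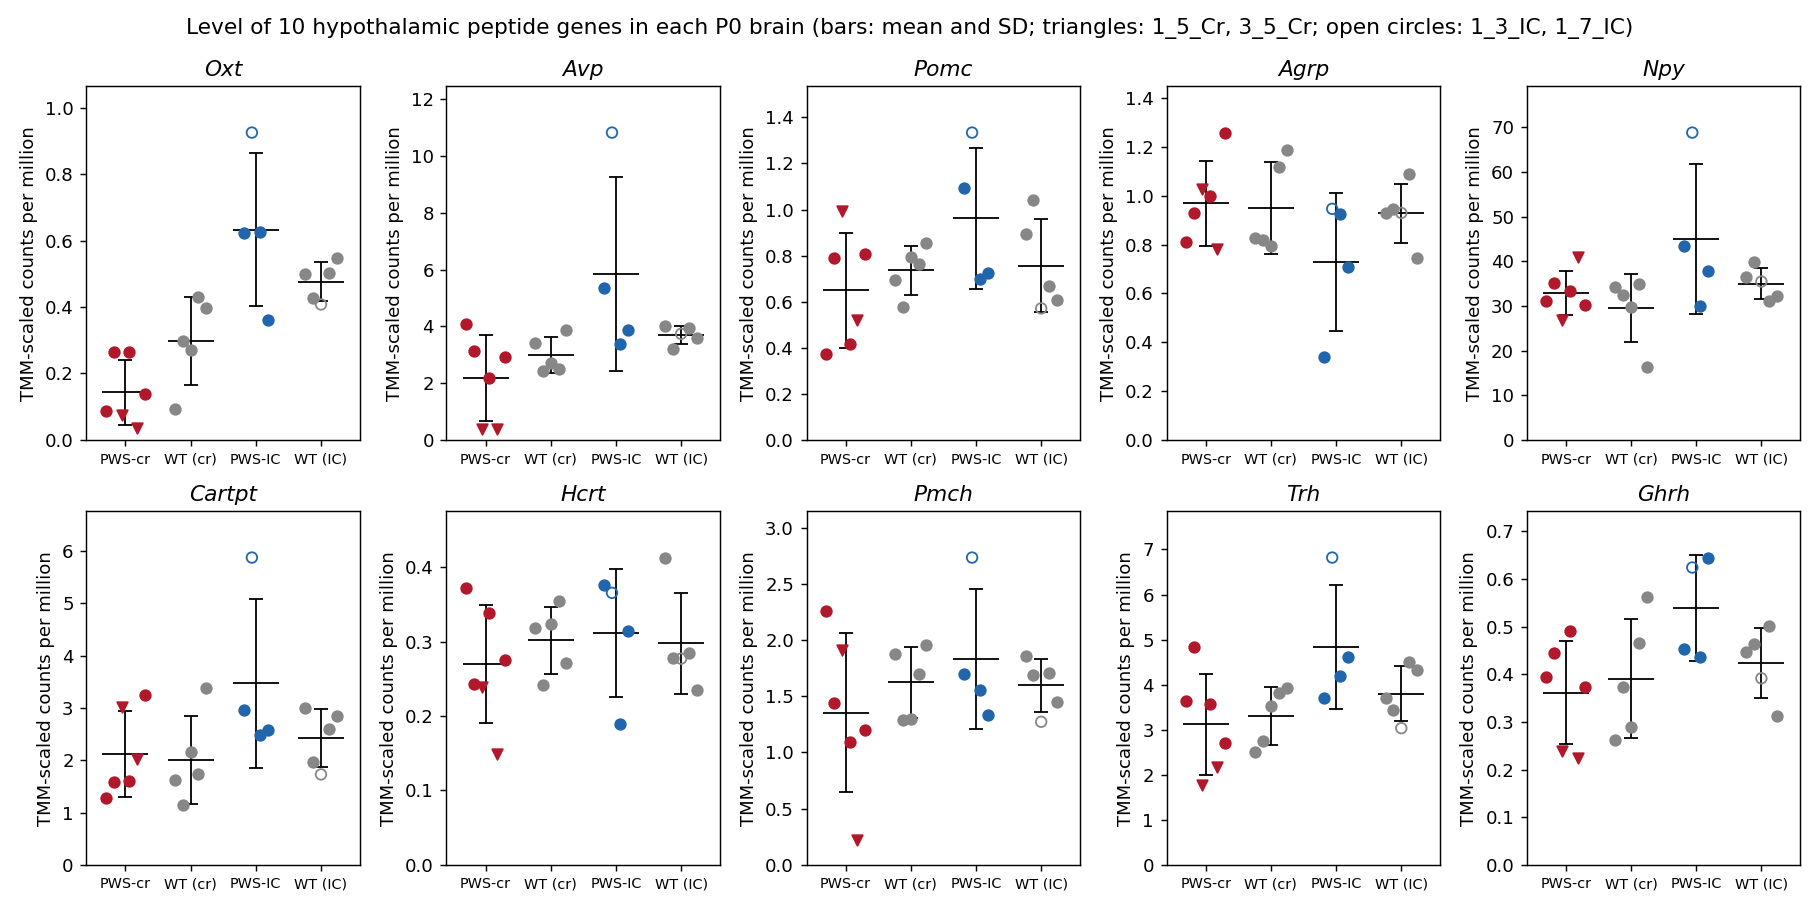
CPM (counts over the TMM-scaled library total) of each peptide gene in every library, with the mean and SD of each group. Triangles mark 1_5_Cr and 3_5_Cr, which hold the 2 lowest Avp values, and open circles mark 1_3_IC, the highest library of the PWS-IC series in 7 of 10 genes, and 1_7_IC.

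Pmch, which encodes melanin-concentrating hormone of the lateral hypothalamus, had 0.224 CPM in the lowest, 1.32 in the median and 2.26 in the highest of the PWS-cr libraries. Its WT littermates had 1.88, 1.29, 1.30, 1.70 and 1.96 CPM. The lowest value, from 12 counts, was that of 3_5_Cr, while 1_5_Cr had 1.91 CPM from 104 counts, within the WT range. The log2 fold change was -0.76 (SE 0.34, 95% interval -1.51 to -0.02), with an unadjusted p of 0.0461 and an adjusted p of 0.9999 in edgeR, and -0.30 (SE 0.23) without 1_5_Cr and 3_5_Cr. Litter 3, whose only PWS-cr pup is 3_5_Cr, had a difference of -2.53 in mean log2 CPM, litter 1 of -0.03 and litter 4 of -0.60. Hcrt, the orexin gene, was counted 8 times in the lowest PWS-cr library, a median of 13.5 and 18 times in the highest, against 17, 13, 18, 19 and 13 times in WT littermates. Its log2 fold change was -0.38 (SE 0.26, 95% interval -0.95 to 0.20).

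Among the arcuate genes, Agrp, whose peptide blocks melanocortin receptors, had 0.783 CPM in the lowest, 0.965 in the median and 1.26 in the highest PWS-cr library, against 0.826, 0.820, 0.793, 1.12 and 1.19 CPM in WT littermates, a log2 fold change of 0.09 (SE 0.13, 95% interval -0.21 to 0.38). Npy, which encodes neuropeptide Y and is also made in many neurons outside the hypothalamus, had 26.9, 32.2 and 41.0 CPM as lowest, median and highest PWS-cr values and 34.2, 32.5, 29.8, 34.9 and 16.2 CPM in WT pups. The low WT value belongs to 4_2_Cr. The log2 fold change of Npy was 0.15 (SE 0.19, 95% interval -0.27 to 0.57).

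The 2 genes of the satiety neurons also overlapped fully between genotypes. Pomc, the precursor of the melanocortins, had 0.373, 0.656 and 0.993 CPM as lowest, median and highest PWS-cr values, against 0.695, 0.578, 0.793, 0.765 and 0.854 CPM in WT littermates, with a log2 fold change of -0.10 (SE 0.26, 95% interval -0.68 to 0.49). Pomc is also made in the anterior pituitary, and the hormone genes of that gland were uneven. Tshb, for thyrotropin, was counted in every library, at 0.688 to 1.06 CPM in PWS-cr and 0.710 to 1.31 CPM in PWS-IC pups, against 0.582 to 1.08 and 0.809 to 1.27 CPM in their WT littermates. Lhb had no count in any library and Prl reached 0.0646 CPM, while Gh, for growth hormone, ran from 0 to 1.58 CPM in PWS-cr and from 0.0208 to 0.652 CPM in WT pups. The highest Gh value was in 1_5_Cr, which also had the highest Pomc value of its series. The summed level of 10 pituitary markers ran from 1.19 to 3.48 CPM in PWS-cr and from 1.46 to 2.94 CPM in WT pups, and the part of pituitary RNA in the Pomc values was not tested. Cartpt, which encodes CART and is expressed well beyond the hypothalamus, had 1.27, 1.82 and 3.25 CPM as lowest, median and highest PWS-cr values and 1.61, 1.14, 2.16, 1.73 and 3.38 CPM in WT pups (log2 fold change 0.31, SE 0.30, 95% interval -0.35 to 0.97).

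Among the releasing hormones, Trh had 1.78 CPM in the lowest PWS-cr library, 3.15 in the median and 4.84 in the highest. WT littermates had 2.52, 2.74, 3.53, 3.81 and 3.92 CPM, and the log2 fold change was -0.19 (SE 0.29, 95% interval -0.83 to 0.46). The 2 lowest Trh values were again those of 1_5_Cr and 3_5_Cr. Ghrh had 0.224, 0.384 and 0.490 CPM as lowest, median and highest PWS-cr values, from 12 to 26 counts, against 0.263, 0.373, 0.288, 0.466 and 0.563 CPM in WT pups. Its log2 fold change was -0.18 (SE 0.27, 95% interval -0.78 to 0.43), and its 2 lowest values were in the same 2 libraries.

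The library 3_5_Cr was the lowest of its series in 6 of the 10 genes. Some of the transcription factors that pattern the hypothalamus were also low in 1_5_Cr and 3_5_Cr, while others were not. Fezf1 had 0.221 and 1.08 CPM in 1_5_Cr and 3_5_Cr, against 3.82 to 6.07 CPM in the remaining 4 of that genotype and 4.30 to 5.65 CPM in WT littermates. Nkx2-1, needed to form the ventral hypothalamus, had 6.21 and 6.19 CPM there, the lowest of the 11 libraries. Sim1, needed for the oxytocin and vasopressin neurons, had 2.68 and 0.783 CPM, against 3.79 to 6.69 CPM in WT pups, while Otp, needed for the same neurons, had 15.02 and 10.2 CPM, within the WT range of 6.03 to 26.2. Bsx had 1.32 CPM in 1_5_Cr, the highest PWS-cr value, and 0.149 CPM in 3_5_Cr, against 0.689 to 2.71 CPM in WT pups. In these libraries Hmx2 (0.662 and 0.485 CPM) and Hmx3 (0.772 and 0.634 CPM) lay within their WT ranges of 0.300 to 1.35 and 0.485 to 1.40 CPM. The summed level of 10 hypothalamic markers ran from 19.9 to 38.8 CPM in PWS-cr pups and from 27.9 to 59.4 CPM in WT pups. The sum was 27.1 CPM in 1_5_Cr, 19.9 CPM in 3_5_Cr and 25.6 CPM in 1_1_Cr.

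Hox genes of the caudal end of the brain were high as a sum in 1_5_Cr and 3_5_Cr, but not each of them. Hoxc8 had 0.0736 CPM in 1_5_Cr and 0.0186 CPM in 3_5_Cr, against 0.0932 to 0.429 CPM in WT littermates. Hoxc6 had 0.186 CPM in 3_5_Cr, within its WT range of 0 to 0.224 CPM. The summed level of 9 Hox genes of the caudal hindbrain and spinal cord was 48.5 and 57.8 CPM in 1_5_Cr and 3_5_Cr and 47.3 CPM in 4_3_Cr, against 0.373 to 3.52 CPM in the remaining 3 of that genotype and 0.708 to 20.3 CPM in WT littermates. Since 4_3_Cr had 148 Avp counts, a high Hox sum did not always go with low Avp. Of 15 Hox genes tested in PWS-cr pups 0 were called, and 5 had an unadjusted p under 0.05, beside 2.07% of all genes, 4 higher and 1 lower. Hoxb7 was at 3.48 (SE 0.82), Hoxc8 at -1.20 (SE 0.33) and Hoxb8 at 3.24 (SE 0.96), each with an edgeR adjusted p of 0.9999. In the PWS-IC series the Hox sum ran from 10.9 to 79.4 CPM in PWS-IC pups and from 1.40 to 48.4 CPM in WT pups, with no Avp value below 3.21 CPM. The highest sum was that of 1_3_IC, and without 1_3_IC and 1_7_IC the sums ran from 10.9 to 53.2 CPM in PWS-IC pups and from 1.75 to 48.4 CPM in WT pups. How much tissue of each region a library held was not recorded in the sources used here, and its part in the peptide values was not tested.

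**Figure D3:**
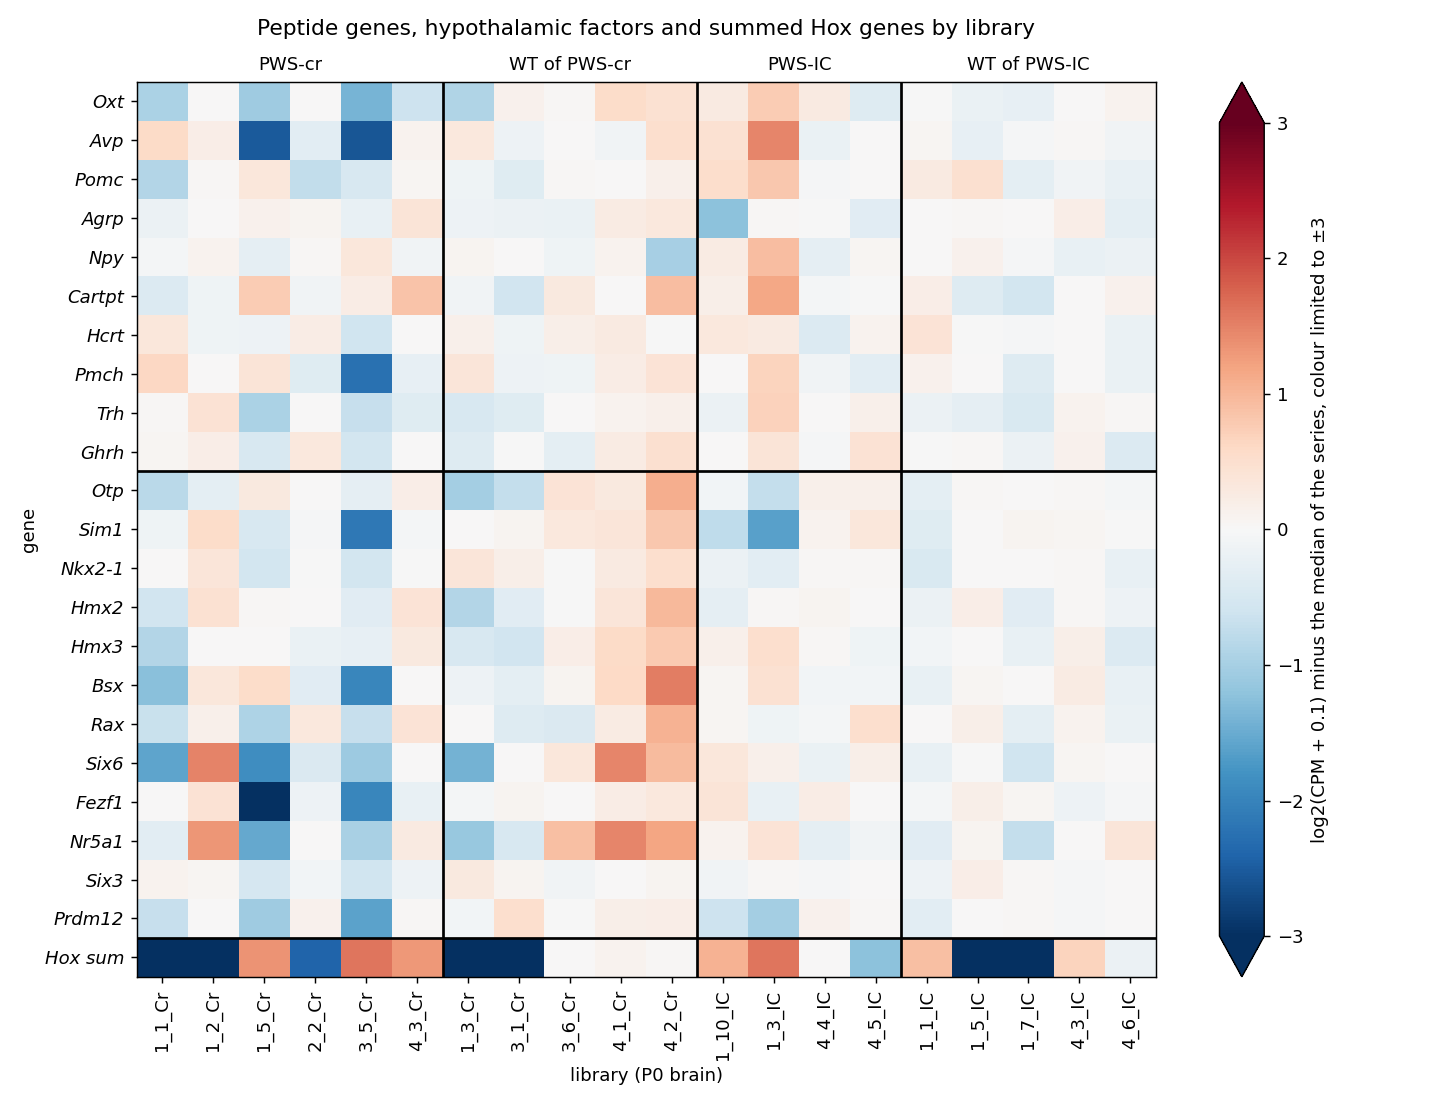
Heat map of log2(CPM + 0.1) in each library minus the median of its series, with colour limited to ±3, for the 10 peptide genes, 12 hypothalamic factors and the sum of 9 Hox genes, mutants left of WT. The columns 1_5_Cr and 3_5_Cr are blue for Oxt, Avp, Trh, Ghrh, Fezf1 and Six3 and red for the Hox sum. Bsx and Otp lie above the median of the series in 1_5_Cr, and 1_3_IC is red for most peptide genes.

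PWS-IC pups were compared with their WT littermates to ask the same of the wider loss of paternal expression. With all 9 libraries as labelled, 0 of 10 peptide genes and 0% of 22367 genes were called in edgeR, and at an unadjusted p under 0.05 there were 2 of 10 members (Npy and Avp, both higher), beside 8.23% of all genes. DESeq2 called 0 of 10 members and 1 gene in all. The groups overlapped in CPM for all 10 members, while 2.29% of all genes did not overlap. 9 of the 10 fold changes were above 0, with a median of 0.36 beside 0.00 over all genes, and the library labelled 1_3_IC was the highest of the 9 libraries in 7 of the 10 genes. Without 1_3_IC and 1_7_IC, 0 of 10 members were called, beside 0.242% of 21913 genes, 0 of 10 had an unadjusted p under 0.05, beside 12.8%, and 0 of 10 did not overlap, beside 10.3%. The median of the members was then 0.08.

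Avp had 5.33, 10.8, 3.37 and 3.85 CPM in the PWS-IC libraries 1_10_IC, 1_3_IC, 4_4_IC and 4_5_IC, against 3.99, 3.21, 3.74, 3.95 and 3.58 CPM in WT littermates. Its log2 fold change was 0.62 (SE 0.27, edgeR unadjusted p = 0.0422, adjusted p = 0.565) with 9 libraries and 0.21 (SE 0.16, adjusted p = 0.601) with 7. With no filter on low counts and 9 libraries Avp was called (edgeR adjusted p = 0.0402, against 0.438 to 0.837 under every other alternative), and without 1_3_IC alone its log2 fold change was 0.22 (SE 0.15, adjusted p = 0.654). The highest value was that of 1_3_IC. In litter 1 the difference in mean log2 CPM was 1.06 with that pair of libraries and 0.57 without, and in litter 4 it was -0.06.

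Oxt had 0.622, 0.925, 0.625 and 0.362 CPM in PWS-IC libraries, from 23 to 43 counts, against 0.499, 0.427, 0.408, 0.502 and 0.548 CPM in WT littermates. The log2 fold change was 0.40 (SE 0.27, 95% interval -0.19 to 0.99) with 9 libraries and 0.12 (SE 0.25, 95% interval -0.44 to 0.68) with 7. Unlike in the PWS-cr series, no library had fewer than 23 Oxt counts.

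The arcuate gene with the lowest fold change in PWS-IC pups was Agrp. It had 0.339, 0.947, 0.927 and 0.708 CPM in PWS-IC libraries, against 0.930, 0.947, 0.930, 1.09 and 0.743 CPM in WT littermates. The library 1_10_IC, with 18 counts, stood below the 38 to 65 counts of all others in the series. The log2 fold change was -0.37 (SE 0.28, 95% interval -1.001 to 0.26) with 9 libraries and -0.59 (SE 0.28, 95% interval -1.21 to 0.03, edgeR unadjusted p = 0.0605, adjusted p = 0.408) with 7. Within litters it was -1.47 in litter 1 and -0.15 in litter 4 without the pair of libraries, where litter 1 holds 1_10_IC as its only PWS-IC pup.

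Npy had 43.4, 68.8, 30.0 and 37.8 CPM in PWS-IC libraries and 36.4, 39.8, 35.5, 31.1 and 32.3 CPM in WT littermates. Its log2 fold change was 0.37 (SE 0.15, edgeR unadjusted p = 0.0331, adjusted p = 0.565) with 9 libraries and 0.14 (SE 0.08, adjusted p = 0.499) with 7. Pomc had 1.09, 1.33, 0.700 and 0.724 CPM in PWS-IC libraries and 0.895, 1.04, 0.571, 0.670 and 0.606 CPM in WT littermates, with a log2 fold change of 0.37 (SE 0.21) and 0.17 (SE 0.18). Cartpt had 2.96, 5.87, 2.48 and 2.58 CPM in PWS-IC libraries, against 3.00, 1.97, 1.73, 2.59 and 2.84 CPM in WT littermates. Its log2 fold change was 0.50 (SE 0.28) with 9 libraries and 0.05 (SE 0.17) with 7.

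The lateral hypothalamic and releasing hormone genes overlapped as well. Pmch had 1.70, 2.73, 1.55 and 1.34 CPM in PWS-IC libraries and 1.86, 1.69, 1.27, 1.71 and 1.45 CPM in WT littermates, and its log2 fold change was 0.20 (SE 0.21) with 9 libraries and -0.10 (SE 0.16) with 7. Hcrt, with 10 to 24 counts per library, had log2 fold changes of 0.10 (SE 0.26) and 0.04 (SE 0.29). For Trh, PWS-IC libraries had 3.69, 6.82, 4.18 and 4.62 CPM, against 3.70, 3.44, 3.03, 4.50 and 4.32 CPM in WT littermates. The log2 fold change of Trh was 0.34 (SE 0.20) with 9 libraries and 0.02 (SE 0.11, 95% interval -0.23 to 0.28) with 7. Ghrh had 0.452, 0.624, 0.435 and 0.645 CPM in PWS-IC libraries and 0.448, 0.464, 0.391, 0.502 and 0.313 CPM in WT littermates, with log2 fold changes of 0.35 (SE 0.23) and 0.25 (SE 0.26).

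**Figure D4:**
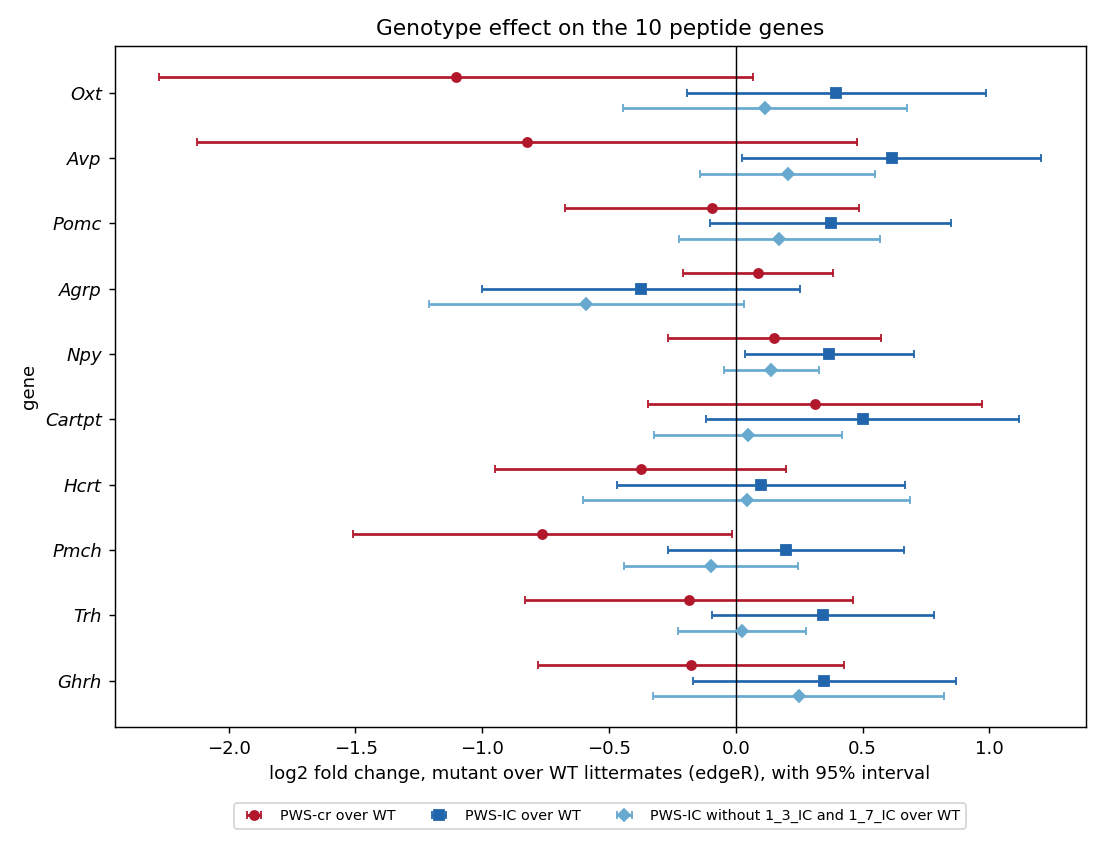
Log2 fold change of each peptide gene, mutant over WT littermates, with its 95% interval from edgeR, for PWS-cr, PWS-IC with 9 libraries and PWS-IC with 7. The intervals of Oxt and Avp are widest in PWS-cr, at -2.28 to 0.07 and -2.13 to 0.48, and the PWS-IC estimates lie nearer 0 with 7 libraries for 9 of the 10 genes.

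Whether the genotype effect differed between the models was tested in 1 fit over both series. With all libraries 0 of 10 members were called, beside 0% of 23771 genes, and 3 of 10 had an unadjusted p under 0.05, beside 4.72%. These were Oxt, with a PWS-IC effect minus PWS-cr effect of 1.52 (SE 0.60, unadjusted p = 0.0206), Avp with 1.47 (SE 0.69, unadjusted p = 0.0471) and Pmch with 1.01 (SE 0.42, unadjusted p = 0.0285), each at an edgeR adjusted p of 0.836. DESeq2 called 0 of 10 members and 3 genes in all. The PWS-cr fold changes of Oxt, Avp and Pmch lay nearer 0 without 1_5_Cr and 3_5_Cr, as given above. Those libraries hold the lowest Avp values, and 3_5_Cr the lowest Oxt and Pmch values, so a shift of this kind follows from the choice. The difference between the models was not tested without those libraries. Without 1_3_IC and 1_7_IC the differences were 1.22 (SE 0.59) for Oxt, 1.02 (SE 0.68) for Avp and 0.66 (SE 0.40) for Pmch. There 0 of 10 members were called, beside 0.182% of 23574 genes, and 1 of 10 had an unadjusted p under 0.05, Agrp at -0.68 (SE 0.31), beside 8.16%.

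The receptors of these peptides gave no call in either model. In PWS-cr pups 16 of 19 receptor genes were tested, with 10 fold changes above 0 and a median of 0.05, and 1 had an unadjusted p under 0.05, beside 2.07% of all genes. That was Avpr1a, the vasopressin receptor tied to social behaviour, at -0.24 (SE 0.09, edgeR adjusted p = 0.9999). In PWS-IC pups 2 of 17 had an unadjusted p under 0.05, beside 8.23% of all genes with 9 libraries and 12.8% with 7, so that the share of the receptors was near that of all genes. The same 2 receptors were below 0 in both. Npy1r, a receptor through which NPY promotes feeding, had a log2 fold change of -0.34 (SE 0.12) with 9 libraries and -0.42 (SE 0.12, edgeR adjusted p = 0.246) with 7. Hcrtr2, an orexin receptor for wakefulness, had -0.30 (SE 0.13) with 9 and -0.40 (SE 0.12, edgeR adjusted p = 0.279) with 7. The median of the 17 receptors was -0.06 with 9 and -0.19 with 7 libraries.

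Other hypothalamic peptides, the enzymes that process them and hypothalamic transcription factors also gave no call. In PWS-cr pups 0 of 23 other peptide genes had an unadjusted p under 0.05, beside 2.07% of all genes. In PWS-IC pups 2 of 24 had such a p with 9 libraries, both higher, beside 8.23% of all genes, and 3 of 23 with 7, of which 2 were higher, beside 12.8%. 23 of 24 had fold changes above 0 with 9 libraries (median 0.19), but 10 of 23 with 7 libraries (median -0.01). Qrfp, whose peptide promotes feeding, was at 0.80 (SE 0.25) and 0.80 (SE 0.28), and Nts, the neurotensin gene, at 0.29 (SE 0.10) and 0.24 (SE 0.09), with edgeR adjusted p of 0.301 and 0.338 in the 7 libraries. Cck, the cholecystokinin gene, was the lower one, at -0.21 (SE 0.07, edgeR adjusted p = 0.312). Of 26 hypothalamic transcription factors, 4 had an unadjusted p under 0.05 in PWS-cr pups, all lower, beside 2.07% of all genes, with a median of -0.18 over the list. Six3 was at -0.39 (SE 0.12), Nkx2-1 at -0.47 (SE 0.16) and Isl1 at -0.44 (SE 0.17), each with an edgeR adjusted p of 0.9999. The libraries are of whole brain, and the part of these values that came from the hypothalamus was not tested. In PWS-IC pups 0 of 25 had such a p with 9 libraries and 4 of 25 with 7, of which 3 were higher, beside 12.8% of all genes. With 7 libraries Nkx2-2 was at -0.29 (SE 0.10), Isl1 at 0.30 (SE 0.11) and Pou3f2 at 0.15 (SE 0.05), with edgeR adjusted p of 0.301, 0.308 and 0.313. The 9 genes of peptide processing include those of the prohormone convertases. They had 0 with an unadjusted p under 0.05 in all 3 comparisons, beside 2.07%, 8.23% and 12.8% of all genes.

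Lists of markers of other tissues were tested alongside, and none of their genes was called. Over all genes tested, the share with an unadjusted p under 0.05 was 2.07% in PWS-cr pups. In PWS-IC pups it was 8.23% with 9 libraries and 12.8% with 7. Of the pituitary markers, 0 of 8 had an unadjusted p under 0.05 in PWS-cr pups and 1 of 6 in PWS-IC pups. That was Gata2, a transcription factor also made in the midbrain, at 0.47 (SE 0.17) with 9 libraries and 0.69 (SE 0.12, edgeR adjusted p = 0.0705) with 7. Of 14 olfactory markers, 1 had such a p in each comparison, Ano2 in PWS-cr pups at 0.36 (SE 0.16, edgeR adjusted p = 0.9999) and Adcy3 in PWS-IC pups at -0.22 (SE 0.10) with 9 and -0.30 (SE 0.08, edgeR adjusted p = 0.244) with 7 libraries. Of 14 interneuron markers 0 had one in any comparison, and of the Hox genes 0 of 12 and 0 of 11 in PWS-IC pups with 9 and 7 libraries.

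Across the 20 libraries, each series centred on its own mean, the log2 CPM of some peptide genes varied together from pup to pup. These correlations are descriptions over 20 libraries that share genotype, litter and depth. Every pair with r of at least 0.62 is given. Trh had r = 0.73 with Avp, 0.73 with Ghrh and 0.69 with Oxt. Avp had r = 0.63 with Hcrt, 0.63 with Ghrh, 0.62 with Pmch and 0.62 with Oxt. Oxt and Ghrh had r = 0.63, Hcrt and Pmch 0.64, and Pomc and Cartpt 0.66, whereas Agrp and Npy, made in the same arcuate neurons, had r = -0.27. Without 1_3_IC and 1_7_IC the r of Avp and Trh was 0.71, of Oxt and Avp 0.58, of Pomc and Cartpt 0.53 and of Agrp and Npy -0.47.

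The genes most like Avp among 15515 genes of at least 1 CPM were Efnb3 (r = 0.85), C130093G08Rik (0.84) and Fezf1 (0.82), and without the pair of libraries C130093G08Rik (r = 0.90) and Fezf1 (0.90) were still among the 3 most alike. Avp and Fezf1 both had their lowest values of the PWS-cr series in 1_5_Cr and 3_5_Cr, which were kept in each r. The genes most like Oxt were Rnd3 (0.74), Gspt2 (0.73) and C130093G08Rik (0.69). Among the 3 genes most like Pmch were Gas2l2 (0.78) and Ttr (0.75). Agrp was most like C230013L11Rik (0.93), Gm9917 (0.86) and Cox17 (0.84). For Npy they were Zmat2 (0.93), Pantr1 (0.92) and Inip (0.91), for Cartpt Camk2g (0.94), Serpine2 (0.93) and Ndrg2 (0.92), and for Pomc Sulf2 (0.79), Ndfip2 (0.79) and Dll3 (0.79). Hcrt was most like Dlg4 (0.71), Kbtbd4 (0.71) and Efnb3 (0.68). Trh was most like Avp (0.73), Timm9 (0.72) and Smim14 (0.68), and Ghrh like Trh (0.73), Gm37305 (0.72) and Spag8 (0.69). Of the other genes named, C230013L11Rik and Gm9917 for Agrp and Gm37305 for Ghrh were also among the 3 most alike without 1_3_IC and 1_7_IC. Each r was picked as one of the highest among 15515 genes, and the r that such a choice gives for unrelated genes was not tested.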

How the data were processed

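RNA of whole P0 brains was sequenced from polyA-selected, unstranded libraries. Per the labels and the study's methods, the authors mapped reads to mm10 with STAR and counted them per gene with featureCounts. The deposited raw counts were the values tested. The deposited TPM and FPKM, which the authors scaled by depth and gene length, served only to order the genes by level. Columns holding the authors' own fold changes and p-values were not used. Of 22 labelled libraries, 20 have a column. Litter was read from the first number of the sample label.

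The test was edgeR (version 4.0.16, in R 4.3.3): TMM factors, then glmQLFit and glmQLFTest for genotype beside litter, in each series separately. A gene entered if 4 or more libraries had 10 or more counts of it. All 10 members passed this filter in both series. P-values were adjusted by Benjamini-Hochberg over all genes tested, and a gene was called under 0.05. The SE is the log2 fold change over the square root of F. Totals of 45798407 to 62103143 counts per library leave genes with few counts imprecise. The alternatives were DESeq2 1.42.0, RLE scaling, other filters, no litter, sex as labelled, robust dispersions, each library left out, and 2 libraries left out together. The likeness of genes used Pearson's r of log2 CPM with a prior count of 2. Some genes of these lists are not reported here.

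The members and lists were chosen with earlier results of these data known. The rule was to name all members and, from every other list, the genes called or, with none called, up to 3 of the smallest unadjusted p in a comparison. Here these are given where that p was under 0.05, beside defining markers.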

Additional observations from a re-analysis of the deposited data

Results flagged for a closer look

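In groups of 4 to 6 libraries, the 40 combinations of gene and group were searched for a library whose gap to its neighbour exceeded Dixon's 95% critical value. 3 were found, and chance alone gives about 1 in 20. Cartpt in the library labelled 1_3_IC had 5.87 CPM, far above the other 3 PWS-IC libraries, and this library also goes against its label. Whether its larger share of short-gene reads bears on Cartpt, which has 1277 exonic bases, was not tested. Npy in the WT library 4_2_Cr had 16.2 CPM, far below its group. Hcrt in the WT library 1_1_IC had 0.413 CPM, above the other 4 WT littermates of PWS-IC.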

How the results depend on the processing

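No paired analysis was possible because replicate numbers only name pups, and the litter they share is already a term of the model. In PWS-cr and in PWS-IC with 7 libraries, 0 members were called under any alternative run, the added one without 1_5_Cr and 3_5_Cr included, while genes called in all ranged from 2 to 10 and from 28 to 978. In PWS-IC with 9 libraries, 1 member was called without the filter on low counts (Avp, log2 fold change 0.65, edgeR adjusted p = 0.0402), where 471 genes were called, and 0 under the others, in which the adjusted p of Avp ranged from 0.438 to 0.837. The difference between the models gave 0 members throughout, with 0 to 43 genes called. DESeq2 called 7 genes in PWS-cr, 1 in PWS-IC with 9 and 227 with 7 libraries, against 3, 0 and 53 in edgeR. The order of members was the same by FPKM as by TPM.

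Signs turned only for small fold changes, and the cause was not tested. Without 1_5_Cr and 3_5_Cr, Trh was at 0.12 and Ghrh at 0.063 in PWS-cr. With the labelled sex in the model, Hcrt was at -0.26 in PWS-IC with 9 libraries, and Cartpt at -0.22, Hcrt at -0.26 and Trh at -0.032 with 7. In these fits 1_1_IC is the only WT library labelled female and no PWS-IC library is labelled male. Sex and genotype are thus told apart through 1_1_IC alone. In the 9 libraries the labelled sex goes against the Xist and Eif2s3y counts of 1_3_IC and 1_7_IC. Without litter, Hcrt was at -0.040 with 7. With each library left out in turn, Pomc ranged from -0.21 to 0.034 in PWS-cr and Pmch from -0.034 to 0.31 in PWS-IC with 9 libraries. With 7, Hcrt ranged from -0.11 to 0.20, Cartpt from -0.10 to 0.13, Trh from -0.0068 to 0.065, Oxt from -0.11 to 0.34 and Avp from -0.058 to 0.31. Oxt, Hcrt and Ghrh rest on 2 to 43 counts per library, and their intervals hold counting error and the spread between pups together.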
